A study of Ovis aries with 23 samples.

Results

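The 216 genes described here are the members of a list of differentially expressed (DE) genes of the ovine pars tuberalis (PT) that were annotated to cell communication and to no other category. The study's annotated list holds 1324 genes, 497 of them carry the cell communication annotation, and 225 carry it alone. A fixed set of 9 of these 225 genes was left out, and 216 of the 25197 genes in the count files remained. A gene entered the study's list because it changed in at least 1 of the study's comparisons, so the list was itself chosen on measured values. A total of 94 members had been called in comparisons of short photoperiod (SP) with long photoperiod (LP) in the animals analyzed here. The other 122 members had been called only in other animals, and their values in the present samples were not what placed them on the list. For the 94 members the differences between SPs and LPs are therefore given as a description, and counts of them past a threshold describe the choice of the list. The 122 members are tested, although genes called here had been moved out of that set, which leaves it poorer in calls.

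PT tissue came from neutered male Scottish blackface sheep. A total of 5 samples were taken on SPs and 6 samples each on day 1, day 7, and day 28 of LPs. All groups share breed, sex, and neutering, and the labels give neither the time of day of sampling nor the meaning of the sample number within a group. Each sample is whole tissue, in which fewer cells of a type and less RNA per cell cannot be told apart.

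The PT is the sleeve of pituitary tissue around the stalk that carries melatonin receptors and reads day length. On LPs its thyrotroph cells release thyrotropin, which acts on tanycytes of the neighbouring hypothalamus and changes the local supply of active thyroid hormone. The PT also sends signals to the prolactin cells of the pars distalis, and candidate messengers include peptides, secreted proteins, and small molecules whose release needs the regulated secretory pathway.

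Expression is given in CPM (counts of a gene scaled to a common library size), normalized over all 23 samples by edgeR's trimmed mean of M-values (TMM), and levels are compared between samples of 1 gene and never between genes. LP day 1 sample 4 was the shallowest library, with 307952 counts, and the deepest, LP day 28 sample 1, held 4413929. A count of 3, taken as the lowest detectable level, equals 9.74 CPM in that shallow sample and 1.62 CPM or less in each of the others. These floors use the raw library size, before TMM scaling. LP day 1 samples 3 and 4 differed by a chi-square per gene of 1.14, against 1 for counting noise alone, and were kept as 2 samples. If they are not separate samples, SDs and tests at LP day 1 understate the spread. The PT thyrotroph marker CGA, the gene of a common hormone subunit, was at 3886 to 11559 CPM. The pars distalis markers PRL, the prolactin gene, and LHB were at 21521 to 242617 CPM and 1550 to 8829 CPM. The glia marker GFAP was at 47.8 to 832 CPM, and the folliculostellate cell marker S100B was at 11.9 to 180 CPM. Markers of other PT cells and of neighbouring tissue were thus present at levels that varied between samples. SP sample 3, LP day 1 sample 5, and LP day 7 sample 3 stood apart in interferon-response genes, and results that rest on them are given with and without them.

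Members spanned the full range of expression. On average over the 23 samples, 15 members were under 1 CPM, 78 were at 1 to 10 CPM, 99 were at 10 to 100 CPM, and 24 were over 100 CPM. By textbook function the 198 members with a symbol divide into 20 secreted signals, 7 prohormone-processing enzymes and peptidases, 11 proteins of vesicles and exocytosis, 21 G-protein-coupled receptors, and 10 other surface receptors. A further 6 are nuclear receptors or convert thyroid hormone, 18 were grouped with ion channels, transmitter-gated receptors, or exchangers, and 39 were grouped as intracellular signals. These groups are broad. The 18 include the carnitine palmitoyltransferase CPT1C, and the 39 include AANAT, the enzyme of melatonin synthesis, and the factors CLOCK and FOSL2. Junction and scaffold proteins number 14, matrix proteins 9, and interferon and immune proteins 16, and 27 members fall in none of these groups. The remaining 18 members have an identifier but no symbol.

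The comparison of SPs with each LP day asks how the PT responds to lengthening days. By edgeR's quasi-likelihood test at a false discovery rate (FDR) under 0.05, 0 of 197 members tested passed at LP day 1, when 0% of all genes tested passed. A total of 25 members had an unadjusted p under 0.05, beside 3.33% of all genes. The exact test of edgeR called 1 member and 0.0469% of all genes, and DESeq2 called 0 members and 0.0134% of all genes. At LP day 7, 0 of 200 members passed, beside 0.266% of all genes, with 0.193% higher and 0.0732% lower. There, 60 members had an unadjusted p under 0.05, beside 14.4% of genes. Of these, 40 were among the 93 members listed from these animals, and 20 were among the 107 listed from other animals only, which is 18.7% of them. The exact test called 15 members and 1.5% of all genes, and DESeq2 called 15 members and 2.38% of all genes. At LP day 28, 11 of 202 members passed, beside 0.67% of all genes. Of these, 7 were higher on LPs, beside 0.422% of genes, and 4 were lower, beside 0.248%. Since 10 of the 11 had been listed from these animals, nothing is read from this excess. The median log2 fold change of the members against SPs, 0.034 on the first of the LP days, was 0.19 on day 7 and 0.074 on day 28, beside medians of all genes from -0.0070 to 0.0018. With the parity of the sample number as a covariate the count at LP day 7 was 15, beside 2.22% of all genes. It was 3 without SP sample 3 (0.369% of all genes), 2 without LP day 7 sample 2 (0.187%), and 5 without LP day 7 sample 6 (0.759%). At LP day 28 the count fell to 2 without SP sample 2 (0.271% of all genes) and to 3 without LP day 28 sample 6 (0.311%). It was 5 without LP day 28 sample 1 or 3 (0.391% each). It was 7 without SP sample 1 (0.524%), SP sample 3 (0.61%), or LP day 28 sample 2 (0.507%).

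**Figure D1:**
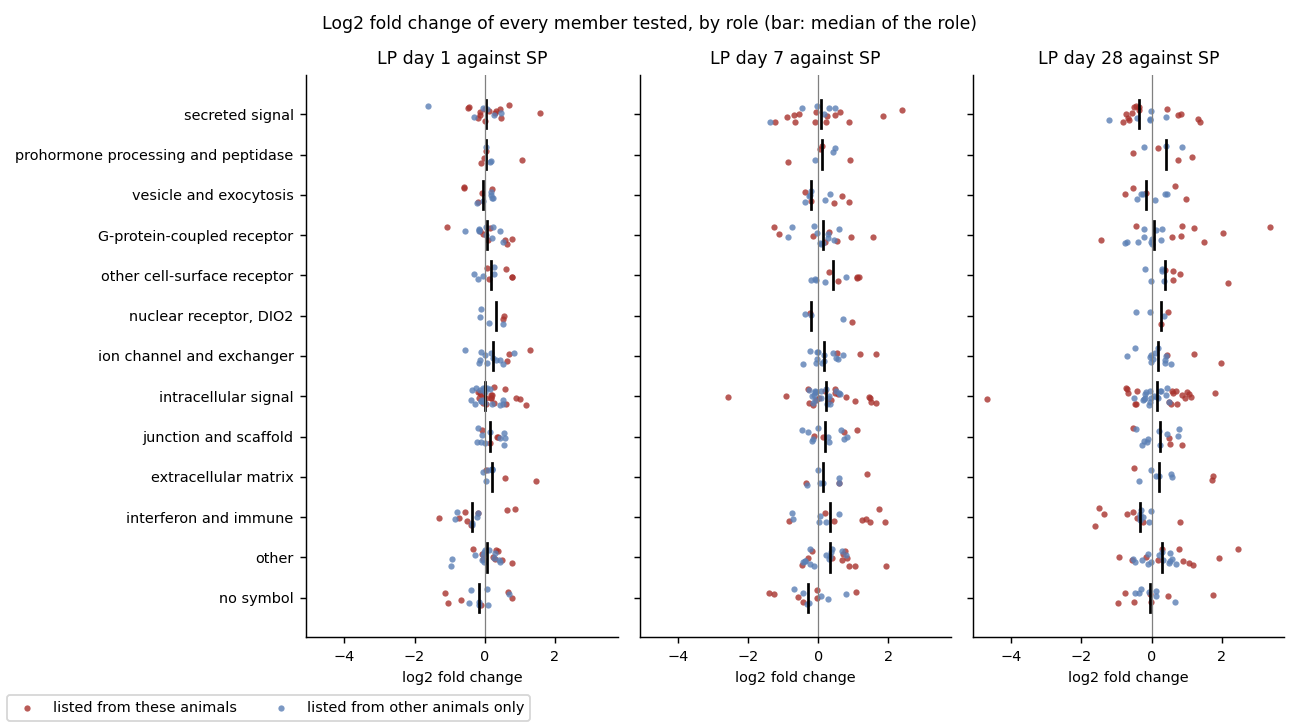
Each point is 1 member tested, at its log2 fold change against SP on LP days 1, 7, and 28, sorted by role on the vertical axis, with the median of each role as a bar. Red points are members listed from these animals and blue points are members listed from other animals only, and the point farthest to the left is GADD45G, at -4.68 on LP day 28.

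Among the 20 secreted signals, VGF and ADM, both listed from these animals, had higher group means at LP day 28 than on SPs. VGF encodes a granule protein that is cut into several neuroendocrine peptides. On SPs the 5 samples held 126, 94.8, 96.1, 64.8 and 87.2 CPM of VGF, whereas LP day 28 samples ran from 108 to 399 CPM with a median of 202. The 2 groups overlapped, with LP day 28 sample 2 at 108 CPM, below the highest SP sample. The group means were 93.8 ± 22 (SD, n = 5) on SPs, 117 ± 61.6 (SD, n = 6) at LP day 1, 174 ± 88 (SD, n = 6) at LP day 7, and 237 ± 113 (SD, n = 6) at LP day 28, and LP day 28 differed from SPs by a log2 fold change of 1.33 with a standard error (SE) of 0.27. ADM, which encodes the vasodilator peptide adrenomedullin, was at 36.3, 47.7, 31.4, 60.6 and 42 CPM in the SP samples and ran from 58 to 92.4 CPM with a median of 83 at LP day 28. Only SP sample 4 reached the LP day 28 range, and the log2 fold change was 0.83 (SE 0.17).

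Other secreted signals had their extreme values at other LP days. FAM3B, a secreted protein of the FAM3 family made in endocrine tissue, was at 2.65, 1.02, 1.73, 0.972 and 0.282 CPM on SPs and ran from 2.95 to 15.7 CPM with a median of 6.11 at LP day 7, without overlap and with a log2 fold change of 2.39 (SE 0.54). The nearest FAM3B samples of these groups lie closer together than the level of 3 counts. At LP day 28 it was at 0.569 to 7.02 CPM, back across the SP range. CCK, the gene of the peptide cholecystokinin, lay lower at LP day 7, at 0.509 to 3.01 CPM against 3.71 to 7.11 on SPs, with a log2 fold change of -1.22 (SE 0.35). The nearest CCK samples, at 3.01 and 3.71 CPM, also lie closer together than the level of 3 counts. TRH, which encodes thyrotropin-releasing hormone, had a mean of 6.16 ± 3.97 CPM (SD, n = 5) on SPs, 22.3 ± 12.2 (SD, n = 6) at LP day 7, and 8.22 ± 3.56 (SD, n = 6) at LP day 28. Its LP day 7 samples spread from 9.02 to 42.5 CPM, with sample 3 alone inside the SP range. PENK, the proenkephalin gene, ran from 0 to 10.2 CPM over all 23 samples, and its SP and LP day 28 means of 4.26 ± 3.89 (SD, n = 5) and 2.35 ± 1.73 (SD, n = 6) differed by less than the SD on SPs.

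The appetite peptides NPY and AGRP, which mark a class of arcuate neurons, had their extremes in the same samples. Both were highest in LP day 28 sample 2, at 114 and 93.8 CPM, and both were lowest in LP day 1 sample 2, at 11.2 and 3.12 CPM. The other LP day 28 samples held 19.4 to 30.5 CPM of NPY and 21.3 to 34.1 CPM of AGRP. Group means of NPY were 52.7 ± 13.2 (SD, n = 5) on SPs and 41.3 ± 35.8 (SD, n = 6) at LP day 28, with overlapping ranges. AGRP was the member nearest to NPY in its deviations from group means over the 23 samples (Pearson's r = 0.90, Spearman's rho = 0.88), as a description with LP day 28 sample 2 among the points.

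Several members were high in the samples with the most glia marker GFAP, across groups. AGT, which encodes angiotensinogen and is made by astrocytes in the brain, ran from 7.81 to 231 CPM over the samples. Its 3 highest values were in LP day 1 sample 5, SP sample 3, and LP day 7 sample 1, at 231, 186 and 155 CPM, and GFAP stood there at 832, 623 and 534 CPM. In LP day 1 samples 2, 3, and 4, AGT was at 7.81, 14.7 and 8.9 CPM and GFAP at 47.8, 113 and 104 CPM. The AGT value of sample 4 is 3 counts, the lowest detectable level. The astrocyte membrane protein MLC1 had its highest value, 107 CPM, in LP day 1 sample 5 and its lowest, 2.19 CPM, in LP day 1 sample 2. PDYN, the prodynorphin gene, was at 15.7 and 10.4 CPM in LP day 1 sample 5 and SP sample 3, and at 0.53 CPM in SP sample 1. ADCYAP1, the gene of the peptide PACAP, was at 15.3, 10.7 and 9.28 CPM in LP day 1 sample 5, SP sample 5, and LP day 7 sample 1, and at 0 in SP sample 1 and LP day 1 samples 3 and 4. The 0 of LP day 1 sample 4, the shallowest library, lies under its floor of 9.74 CPM. CALB2, the neuronal calcium-binding protein calretinin, was at 79.8 CPM in LP day 1 sample 5 and 2.91 CPM in SP sample 1. The other glia marker paired to an identifier, MBP, was also highest in LP day 1 sample 5, at 272 CPM. The summed level of these 2 of the 7 listed glia and tanycyte markers was 116 to 741 CPM on SPs. At LP day 1 it spanned 60.9 to 1105 CPM, at LP day 7 the span was 152 to 605 CPM, and LP day 28 samples held 213 to 478 CPM. S100B was also highest in LP day 1 sample 5, at 180 CPM, and the study names S100-positive folliculostellate cells as the other major PT cell type. The part of glial tissue or of folliculostellate cells in these members' levels was not tested.

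**Figure D2:**
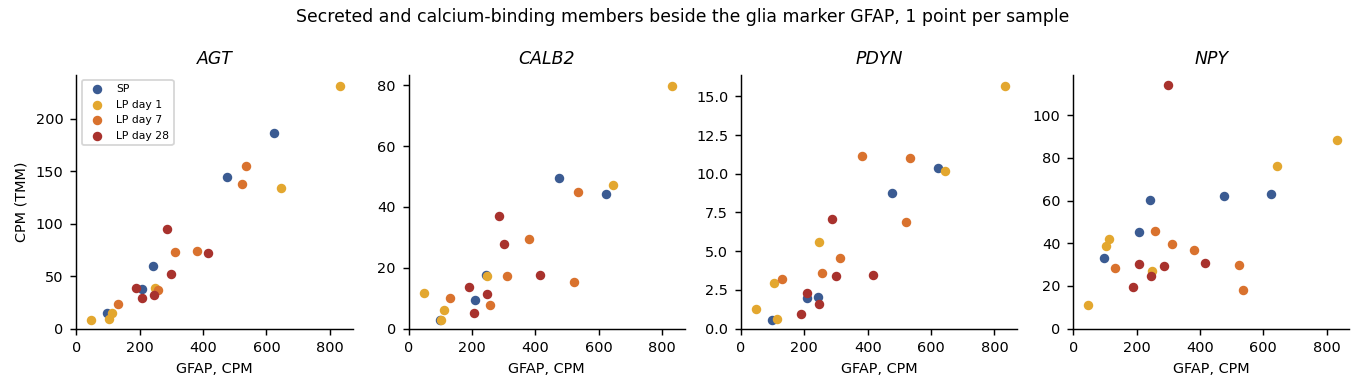
CPM of AGT, CALB2, PDYN, and NPY on the vertical axes against CPM of the glia marker GFAP on the horizontal axes, 1 point per sample and 1 color per group. AGT runs from 7.81 CPM in LP day 1 sample 2, the sample with the least GFAP, to 231 CPM in LP day 1 sample 5, the sample with the most, whereas the highest NPY value, 114 CPM, lies at a GFAP level of 299.8 CPM.

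APOA1, the main apolipoprotein of high-density lipoprotein, had its lowest group mean at LP day 7. The SP samples held 104, 147, 293, 142 and 262 CPM and the LP day 1 samples ran from 145 to 250.2 CPM with a median of 191, whereas LP day 7 samples ran from 84.8 to 134 CPM with a median of 121. LP days 1 and 7 did not overlap, and LP day 28 samples, at 116 to 159 CPM, overlapped every other group. Between them the log2 fold change was -0.70 (SE 0.14), with an FDR of 0.202 by edgeR's quasi-likelihood test, so this difference did not pass.

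Enzymes that cut prohormones and peptides showed both directions. PCSK1 and PCSK2 encode the prohormone convertases of secretory granules. PCSK1 was at 356, 196, 329, 312 and 315 CPM in the SP samples and ran from 201 to 1053 CPM with a median of 453 at LP day 28, with 5 of the 6 LP day 28 samples above every SP sample and sample 2 inside the SP range. PCSK2 ran from 38.9 to 251 CPM on SPs and from 87.2 to 190.2 CPM at LP day 28, a spread that covered both groups, with a log2 fold change of 0.18 (SE 0.33). CORIN, the serine protease that activates atrial natriuretic peptide, was lower at LP day 7. Its values were 50.6, 49.1, 53.4, 67.1 and 82.4 CPM on SPs, 43.1 to 89 CPM at LP day 1, and 16.54 to 40.2 CPM at LP day 7, where no sample reached the SP or LP day 1 range. The log2 fold change from SPs was -0.85 (SE 0.19), and that from LP day 1 was -0.76 (SE 0.20) with an FDR of 0.596 by edgeR, which did not pass.

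Among the 11 proteins of vesicles and exocytosis, BAIAP3, listed from these animals, had its lowest group mean at LP day 28. BAIAP3 is a Munc13 relative that acts in dense-core vesicle release. It was at 958, 891, 845, 708 and 524 CPM on SPs and at 409 to 544 CPM with a median of 462 at LP day 28, with SP sample 5 alone inside the LP day 28 range. Group means were 785 ± 173 (SD, n = 5) on SPs, 690.3 ± 104 (SD, n = 6) at LP day 1, 680.3 ± 110.4 (SD, n = 6) at LP day 7, and 467 ± 54 (SD, n = 6) at LP day 28, and LP day 28 differed from SPs by a log2 fold change of -0.75 (SE 0.13). No LP day 28 sample reached the lowest LP day 7 sample, at 554 CPM, and the log2 fold change between these 2 days was -0.54 (SE 0.10), with an FDR of 0.114 by edgeR that did not pass. CALY, which binds dopamine D1 receptors and clathrin, was at 459.9 to 797 CPM on SPs and at 368 to 430.5 CPM at LP day 28, without overlap. LP day 1 samples 2, 3, and 4 were lower still, at 226, 238 and 217 CPM, while LP day 1 sample 5 stood at 663 CPM. PTPRN, a phosphatase-like protein of dense-core granule membranes, had a mean of 691 ± 119.5 CPM (SD, n = 5) on SPs and 933 ± 247 (SD, n = 6) at LP day 28. It had been listed from other animals only, its log2 fold change was 0.43 (SE 0.17), and with an FDR of 0.268 by edgeR it did not pass. SVOP, a synaptic vesicle transporter relative listed from other animals only, was at 47 to 59.5 CPM on SPs and 33.5 to 46 CPM at LP day 28 without overlap, with a log2 fold change of -0.41 (SE 0.12) and an FDR of 0.126 by edgeR that did not pass. VGF was the member whose deviations from group means were nearest to those of PTPRN over the 23 samples (Pearson's r = 0.86, Spearman's rho = 0.88), as a description over samples that share libraries.

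The regulated secretory pathway outside the members was covered by CHGA, CHGB, and SCG3, the 3 of 11 listed genes that could be paired with an identifier, all of them granins or their partners. At LP day 28, 1 of these 3 passed the threshold and was lower, CHGA, at 793 to 1391 CPM against 2629 to 4292 CPM on SPs. The study chose CHGA on these samples, so its lower level is a description. Symbols came only from the study's tables of DE genes, so each gene that could be paired had been called by the study. CHGB and SCG3 did not pass, and SCG3 was at 448 to 718 CPM on SPs and 691 to 936 CPM at LP day 28.

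**Figure D3:**
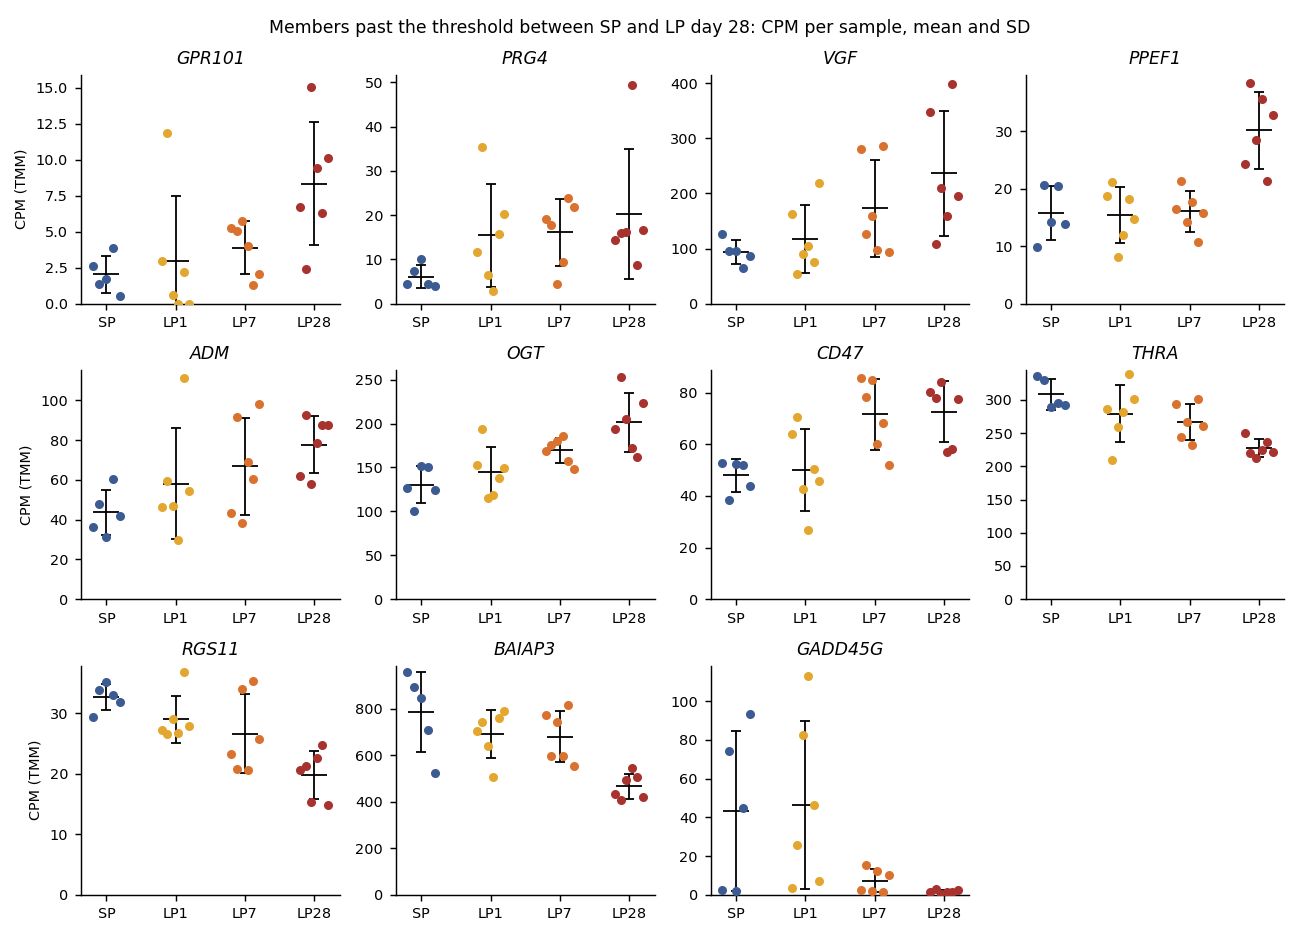
CPM per sample (points, 1 color per group), mean and SD (bars) of the 11 members past the threshold between SP and LP day 28, on SPs and on LP days 1, 7, and 28 (LP1, LP7, LP28). PPEF1 stays at 8.12 to 21.4 CPM in the first 3 groups and lies at 21.3 to 38.3 CPM at LP day 28, whereas GADD45G spans 1.73 to 93.4 CPM on SPs alone.

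Among the 21 G-protein-coupled receptors, GPR101, listed from these animals, had its highest group mean at LP day 28. GPR101 is an orphan receptor known for pituitary growth when duplicated. It was at 2.65, 1.35, 1.73, 3.89 and 0.564 CPM on SPs and ran from 2.4 to 15.1 CPM with a median of 8.06 at LP day 28, with LP day 28 sample 2 inside the SP range, and its log2 fold change was 2.03 (SE 0.45). GPR101 is a low gene here, with 2 to 12 counts per SP sample and 7 to 53 per LP day 28 sample, and its highest value outside LP day 28 was 11.9 CPM in LP day 1 sample 2. That sample also held the most POU1F1, a pars distalis lineage factor, at 289 CPM against 39.5 to 156 CPM on SPs and 87.3 to 268 CPM at LP day 28. The part of pars distalis tissue in the GPR101 values was not tested. ENPEP, a peptidase that trims angiotensin, was likewise highest in LP day 1 sample 2, at 97.2 CPM, with 2.26 to 47.5 CPM in the other 22 samples.

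Other receptors bind hormones of the blood and hypothalamus or transmitters. AGTR1, a receptor of angiotensin II, was at 2.91, 4.06, 10.1, 7.45 and 5.64 CPM on SPs and ran from 9.35 to 37.8 CPM with a median of 13.8 at LP day 28, with a log2 fold change of 1.49 (SE 0.38). SP sample 3 alone lay inside the LP day 28 range. GNRHR, the gonadotropin-releasing hormone receptor, had means of 61.3 ± 17.8 CPM (SD, n = 5) on SPs, 63.6 ± 27.4 (SD, n = 6) at LP day 1, 63.3 ± 23.5 (SD, n = 6) at LP day 7, and 61.5 ± 6.82 (SD, n = 6) at LP day 28. These means lie within 1 SD of each other, and 2 samples depart from them, LP day 1 sample 5 at 13.1 CPM and LP day 7 sample 3 at 107 CPM. TRHR, the receptor for thyrotropin-releasing hormone, stayed at 0.684 to 4.84 CPM. ADRA1A, an adrenergic receptor, ran from 5.93 to 20.8 CPM with group means of 10.3 ± 1.92 (SD, n = 5) on SPs and 12.7 ± 4.33 (SD, n = 6) at LP day 28. The receptor VIPR2, which binds both VIP and PACAP, stayed at 0 to 5.05 CPM, near the count floor of the samples. CHRNA2, a nicotinic acetylcholine receptor subunit, was highest in LP day 1 sample 4, at 14.8 CPM from the shallowest library, and in LP day 7 sample 3, at 11.7 CPM.

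Among the 10 other surface receptors, CD47 was listed from these animals. CD47 is the membrane protein that binds thrombospondin and signals to phagocytes. Its SP samples held 53, 38.6, 52.5, 51.9 and 44 CPM, and the LP day 28 samples ran from 57.2 to 84.2 CPM with a median of 77.8, without overlap and with a log2 fold change of 0.60 (SE 0.13). LP day 7 samples ran from 52.1 to 85.8 CPM, so 5 of 6 were above every SP sample. GUCY2C, the guanylate cyclase receptor of guanylin peptides, ran from 30.8 to 91.1 CPM on SPs and 54.3 to 123 CPM at LP day 28, with a log2 fold change of 0.39 (SE 0.25). KIT, the receptor of stem cell factor, ran from 5.42 to 9.72 CPM on SPs and 5.48 to 20.3 CPM at LP day 28. Ranges of both receptors overlapped at every LP day.

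THRA, the thyroid hormone receptor alpha, was the member listed from other animals only that passed between SPs and LP day 28. The 5 SP samples held 336, 330.1, 289, 295 and 292 CPM, and the LP day 28 samples ran from 212 to 249.8 CPM with a median of 223. No LP day 28 sample reached an SP sample. The log2 fold change was -0.44 (SE 0.0827), with an FDR of 0.0169 by edgeR's quasi-likelihood test over 14929 genes. Of the 108 members listed from other animals only and tested there, 1 passed, which is 0.926% beside 0.67% of all genes. A total of 18 had an unadjusted p under 0.05, which is 16.7% beside 13.8% of all genes, and their median log2 fold change was -0.023. THRA was at 279 ± 43.3 CPM (SD, n = 6) at LP day 1 and 266 ± 27 (SD, n = 6) at LP day 7, between the other groups. Over the alternatives its FDR ran from 3.43e-05 to 0.126, and its direction held in each. The call was lost without SP sample 2, without LP day 28 sample 6, with the replicate block, and with SP samples 2, 3, and 5 alone.

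Other members of the thyroid and steroid hormone group did not pass. DIO2, the deiodinase that makes active thyroid hormone, had means of 10 ± 5.26 CPM (SD, n = 5) on SPs, 19.4 ± 8.52 (SD, n = 6) at LP day 7, and 11.8 ± 4.62 (SD, n = 6) at LP day 28, with LP day 7 samples 1 and 3 highest at 29 and 31 CPM. ESR1, the estrogen receptor alpha, was listed from other animals only. Its mean was 20 ± 4.61 CPM (SD, n = 5) on SPs and 32.5 ± 13.3 (SD, n = 6) at LP day 7, with a log2 fold change of 0.70 (SE 0.25) and an FDR of 0.219 by edgeR. PGR, the progesterone receptor, stayed at 0 to 4.15 CPM and was kept by the filter on low counts at LP day 1 alone among the SP comparisons. NR4A1, an immediate-early nuclear receptor, ran from 66.1 to 414 CPM, with LP day 28 sample 4 highest and LP day 1 samples 3 and 4 next at 282 and 255 CPM. EGR1 and NR4A2, the 2 of 13 listed immediate-early genes outside the members that could be paired, did not pass in any of the 6 comparisons of groups by edgeR. Both could be paired because they are among the study's DE genes, so they are no unselected sample of these genes.

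Intracellular signaling was the largest role, with 39 members. OGT, PPEF1, RGS11, and GADD45G, all listed from these animals, are described first. OGT adds N-acetylglucosamine to intracellular proteins. It was at 126, 101, 151, 150.1 and 125 CPM on SPs and ran from 162 to 253 CPM with a median of 199 at LP day 28 without overlap, and its log2 fold change was 0.62 (SE 0.13). PPEF1 encodes a calcium-binding protein phosphatase. It was at 9.8, 20.7, 14.1, 20.4 and 13.8 CPM on SPs and ran from 21.3 to 38.3 CPM with a median of 30.6 at LP day 28, and no SP or LP day 1 sample reached these values. The highest SP sample and lowest LP day 28 sample of PPEF1, at 20.7 and 21.3 CPM, lie closer together than the level of 3 counts. Its log2 fold change was 0.94 (SE 0.21) from SPs and 0.92 (SE 0.21) from LP day 1, the latter with an FDR of 0.111 by edgeR that did not pass. RGS11 speeds the shutdown of G-protein signals. It was at 29.4, 33.9, 35.2, 33.1 and 31.9 CPM on SPs and at 14.8 to 24.7 CPM with a median of 20.9 at LP day 28, without overlap, and its log2 fold change was -0.72 (SE 0.15). Ranges of the phosphatase PTPN7 on SPs and at LP day 28 did not overlap, at 5.55 to 13.6 CPM against 2.54 to 5.51 CPM on SPs. Its highest SP sample and lowest LP day 28 sample lie closer together than the level of 3 counts. AANAT, the enzyme of melatonin synthesis, has 2 identifiers on the list, and neither exceeded 2.97 CPM in any sample, so no fold is given.

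GADD45G, a stress-inducible regulator of kinase signaling and growth, had the largest fold of all members at LP day 28. On SPs the samples held 2.65, 74.1, 1.73, 45 and 93.4 CPM in the order of samples 1 to 5, and at LP day 1 samples 1 to 6 held 3.74, 25.9, 82.4, 113, 46.6 and 7.1 CPM. At LP day 7 the values were 2.61, 15.1, 2.11, 12.4, 1.27 and 10.3 CPM, and at LP day 28 they were 1.62, 2.74, 0.284, 1.68, 1.45 and 2.34 CPM, from 1 to 8 counts per sample. All LP day 28 samples were low, whereas each of the other groups held both low and high samples. Between LP day 1 and LP day 28 the groups did not overlap, and the log2 fold change was -4.58 (SE 0.69), with an FDR of 0.00292 by edgeR. From SPs to LP day 28 the log2 fold change was -4.68 (SE 0.83), with overlap. The change between LP days 1 and 28 stayed past the threshold in 12 of 12 fits that left out a sample and in 11 of 11 other fits. GADD45G had been listed from comparisons of these LP samples with SPs, so these fits are no test on separate samples.

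Comparisons among LP days were not used to make the list, although the same LP samples entered it through the comparisons with SPs. Of 197 members tested between LP days 1 and 28, 2 passed, GADD45G and BAIAP3, beside 0.216% of all genes. Both were lower at LP day 28, beside 0.0405% of genes. BAIAP3 had a log2 fold change of -0.57 (SE 0.11) and an FDR of 0.0271, with LP day 1 sample 4 alone inside the LP day 28 range, at 507 CPM. Its call held in 4 of 12 fits that left out a sample and in 8 of 11 other fits. The count of 2 became 1 without LP day 1 sample 3 or 6 or LP day 28 sample 1, 2, 3, or 6, beside 0.127% to 0.235% of all genes. It became 6 without LP day 1 sample 2, beside 0.388%. Between LP days 1 and 7, 0 of 197 members passed, beside 0.0201% of all genes, with 29 members at an unadjusted p under 0.05, beside 5.56% of genes. The exact test called 2 of them (0.114% of all genes) and DESeq2 called 1 (0.094%). Between LP days 7 and 28, 0 of 200 passed, beside 0.00672% of all genes, with 56 members at an unadjusted p under 0.05, beside 7.13% of genes. There the exact test called 4 members (0.222% of all genes) and DESeq2 also 4 (0.242%).

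Some signaling members had their highest LP day 7 values in odd samples. SIK2, a salt-inducible kinase downstream of cyclic AMP, was at 20.9, 7.79, 19.3, 9.07 and 13.3 CPM on SPs and at 58.6, 14.5, 62, 35.2, 41.7 and 23.3 CPM in LP day 7 samples 1 to 6. GEM, a small GTPase that restrains calcium channels, was at 3.18, 1.69, 6.35, 0.972 and 2.82 CPM on SPs and at 13.9, 7.42, 11.1, 5.37, 8.66 and 5.49 CPM in LP day 7 samples 1 to 6. In both genes samples 1, 3, and 5 were the 3 highest at LP day 7. The log2 fold change from SPs was 1.46 (SE 0.35) for SIK2 and 1.49 (SE 0.39) for GEM, and SP and LP day 7 ranges overlapped in both.

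Junction, scaffold, and matrix members included 23 genes. TMEM47, a membrane protein of cell junctions listed from other animals only, was at 7.95, 7.79, 13.3, 10.4 and 11 CPM on SPs and at 15.5 to 19.1 CPM with a median of 17.4 at LP day 28, without overlap. Its log2 fold change was 0.77 (SE 0.18), and its FDR of 0.0615 by edgeR did not pass. PRG4, which encodes the joint lubricant lubricin, was at 4.5, 7.45, 10.1, 4.54 and 3.95 CPM on SPs and ran from 8.72 to 49.5 CPM with a median of 16.1 at LP day 28, with a log2 fold change of 1.73 (SE 0.39). Its LP day 28 sample 4 stood apart at 49.5 CPM, and LP day 1 sample 2 was at 35.3 CPM. ADAMTS19, a matrix metalloprotease, was at 0.53 to 3.39 CPM on SPs and 3.47 to 13.5 CPM at LP day 28, with a log2 fold change of 1.76 (SE 0.41). Its highest SP sample and lowest LP day 28 sample, at 3.39 and 3.47 CPM, lie closer together than the level of 3 counts. The gap junction protein GJD2, which joins neurons and endocrine cells, stayed at 0 to 8.19 CPM. ERCC6, a DNA repair factor outside these roles, was at 12.3 to 14 CPM on SPs and 17.1 to 31.5 CPM at LP day 28 without overlap, with a log2 fold change of 0.79 (SE 0.19).

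Members also differed by the sample number within LP days 7 and 28. This comparison of 6 even with 6 odd samples, with the LP day as a covariate, was made because earlier work on these files had found genes that differ in this way, and the labels do not say what the number stands for. The split was thus chosen on these same samples. Its counts and FDRs, given here and below, describe these samples and are no independent test. Of 200 members tested, 20 passed, beside 1.02% of all genes. Of these, 7 were higher in even samples, beside 0.302% of genes, and 13 were lower, beside 0.719%. A total of 13 had been listed from these animals and 7 from other animals only. The clock genes CRY1, NR1D1, DBP, and CIART and the PT gene EYA3 differed in the same way, CRY1 higher and the other 4 lower in even samples. CRY1 was at 16.9 to 29.3 CPM in the odd and 138 to 302 CPM in the even samples of these 2 days. The part of whatever the number stands for in the photoperiod differences was not tested, beyond the fits with parity as a covariate.

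Of the 7 members higher in even samples, DRD1 had the largest difference. DRD1 encodes the dopamine D1 receptor. At LP day 7 its odd samples held 3.77, 3.61 and 1.53 CPM and its even samples 36.2, 36.5 and 38.4 CPM, while at LP day 28 the odd samples held 8.55, 11.4 and 11.6 CPM and the even samples 21.9, 22.2 and 20.3 CPM. Even and odd samples did not overlap on either day. The log2 difference was 2.20 (SE 0.35) with an FDR of 0.00282 by edgeR, and it was smaller at LP day 28 than at LP day 7 by 2.61 (SE 0.36) on the log2 scale, with an FDR of 0.0228 for this interaction. DRD1 was the only member that passed the interaction test, beside 0.00672% of all genes. NETO2, an auxiliary subunit of kainate receptors, was at 1.99 to 6.09 CPM in odd and 8.07 to 20.1 CPM in even samples, with a log2 difference of 1.76 (SE 0.25) and an FDR of 0.00126 by edgeR. LXN, which encodes the carboxypeptidase inhibitor latexin, was at 8.12 to 12.2 CPM in odd and 16.8 to 25.2 CPM in even samples, without overlap. The GABA-A receptor subunit GABRG1, the immediate-early factor FOSL2, the innate immune sensor NLRP12, and GADD45G made up the rest, with log2 differences of 1.26, 1.13, 1.47, and 2.09. NLRP12 passed in 4 of 12 fits that left out a sample. At LP day 28 its odd samples were at 3.87 to 5.97 CPM and its even samples at 5.48 to 8.19 CPM, with overlap. GADD45G held 1 to 8 counts per LP day 28 sample.

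Of the 13 members lower in even samples, SLC8A3 had the largest difference and several others act in secretion. SLC8A3, a sodium-calcium exchanger, was at 7.96 to 30 CPM in odd and 1.19 to 5.07 CPM in even samples, without overlap, with a log2 difference of -2.50 (SE 0.33) and an FDR of 6.37e-04 by edgeR. SYT5, a synaptotagmin of dense-core vesicles, was at 187 to 224 CPM in odd and 109.8 to 155 CPM in even samples, with a log2 difference of -0.70 (SE 0.0972) and an FDR of 8.53e-04 by edgeR. SYT5 was listed from other animals only, and its even and odd samples did not overlap. VGF, PCSK1, and SYT4, which acts in granule maturation and release, were lower in even samples by log2 differences of -1.12, -1.02, and -0.62. VGF was at 158 to 399 CPM in odd and 94.3 to 194 CPM in even samples, and PCSK1 at 381 to 1053 and 176 to 414 CPM, so both overlapped between the sets.

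PDE3A, a phosphodiesterase that breaks down cyclic AMP, was at 11.1 to 19.9 CPM in odd and 4.04 to 7.72 CPM in even samples, with a log2 difference of -1.42 (SE 0.22). The kinase SIK2 and the G-protein subunit GNG10 had log2 differences of -0.995 and -0.85. RGS9, a G-protein signal terminator, was at 75.5 to 127 CPM in odd and 40.3 to 67.1 CPM in even samples, without overlap. The ubiquitin ligase TRIM9 was at 25.6 to 45 and 10.3 to 25.6 CPM, and the scaffold MAPK8IP1 at 344 to 409 and 234 to 321 CPM, both without overlap, although the nearest TRIM9 values, of LP day 28 samples 3 and 4, both round to 25.6 CPM. CPT1C, a carnitine palmitoyltransferase of neurons, and TTYH3, a chloride channel, completed the 13, with log2 differences of -0.55 and -0.41.

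The same comparison was made on SPs and at LP day 1. By edgeR it called 0% of all genes tested, and 0 of the 20 members, so the calls say nothing about the members. Of the 20 differences, 15 had the same direction and 5 the opposite. Single samples were low or high for DRD1 without regard to even or odd number. DRD1 was at 2.65 and 4.04 CPM in SP samples 1 and 3 and at 59.9, 49.9 and 100.2 CPM in samples 2, 4, and 5, and CRY1 stood at 22.5 and 22.8 and at 206, 237 and 406 CPM in these samples. At LP day 1, DRD1 was at 6.95 and 10.1 CPM in samples 1 and 6 and at 35 to 109.8 CPM in the other 4, with CRY1 at 28.3 and 34.5 and at 209 to 282 CPM. GADD45G was low in the same samples, SP samples 1 and 3 and LP day 1 samples 1 and 6, as its values above show. On SPs SLC8A3 did not follow CRY1 in this way, with 2.91, 2.37, 1.44, 4.54 and 3.95 CPM in samples 1 to 5. At LP day 1 it was at 9.88 and 5.58 CPM in samples 1 and 6, which were low in CRY1. It was at 0 to 0.62 CPM in samples 2, 3, and 4, which were high in CRY1. In sample 4, the shallowest library, the floor is 9.74 CPM, so the SLC8A3 value there tells little. Sample 5, also high in CRY1, lay between samples 1 and 6. The part of what CRY1 marks in these levels was not tested.

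**Figure D4:**
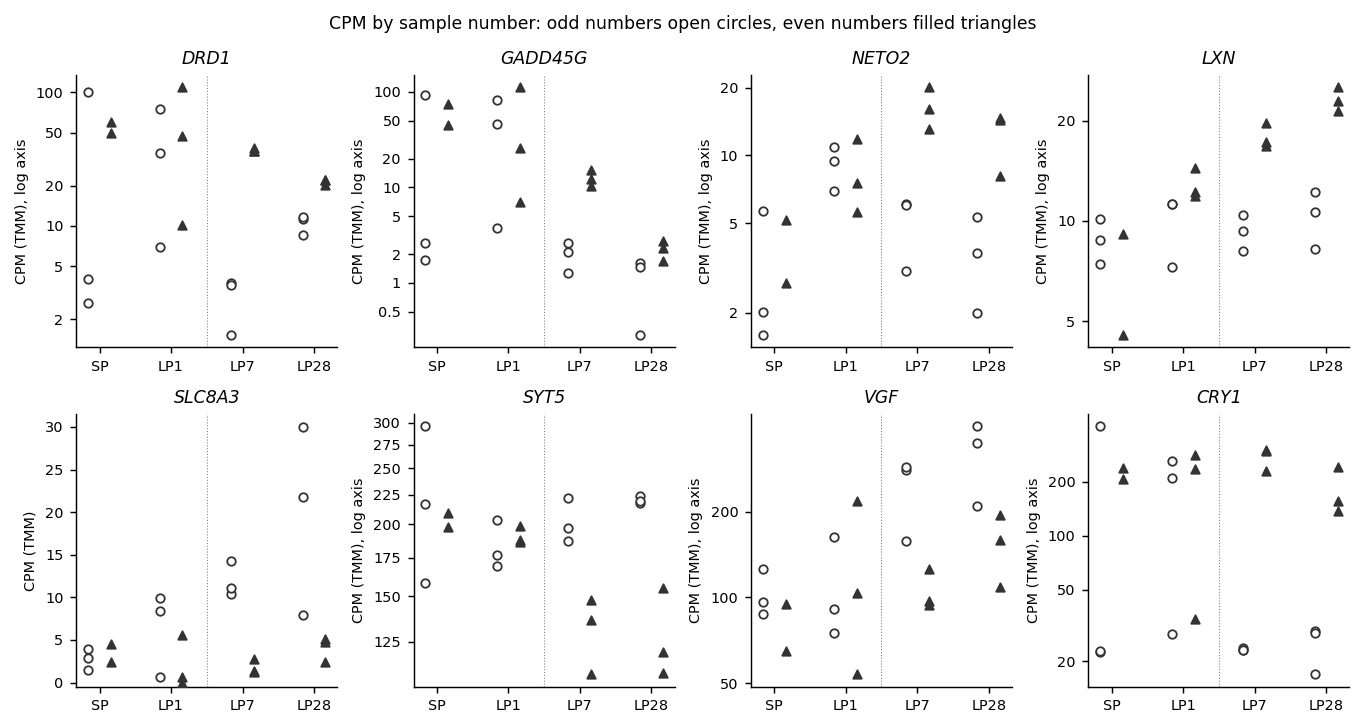
CPM per sample of 7 members and CRY1, with odd sample numbers as open circles and even numbers as filled triangles, on log axes except for SLC8A3, whose axis is linear. Right of the dotted line, at LP days 7 and 28 (LP7, LP28), circles and triangles of DRD1 lie apart at 1.53 to 11.6 and 20.3 to 38.4 CPM, whereas on SPs and at LP day 1 (LP1) they are mixed.

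Of the 16 interferon and immune members, several were set by single samples. MX1, an antiviral GTPase induced by interferon, was at 499.7 CPM in SP sample 3, 311 CPM in LP day 1 sample 5, and 2137 CPM in LP day 7 sample 3, and at 35 to 75.9 CPM in the other 20 samples. IFI6, another interferon-induced gene, was at 236, 102 and 1172 CPM in these 3 samples and at 13.9 to 32.6 CPM in the rest. HERC6, which links the ubiquitin-like protein ISG15 to others, was at 51.6, 22.9 and 309.8 CPM and at 2.54 to 8.9 CPM. No LP day 28 sample was high for any of these 3 genes. IRF9, a part of the interferon-activated transcription complex, was at 207, 136 and 486 CPM in the same samples and at most 89 CPM in the others. LY6E was high in SP sample 3 and LP day 7 sample 3, at 144 and 236 CPM, but not in LP day 1 sample 5, at 60.5 CPM, and PARP12 was high in LP day 7 sample 3 alone, at 89 CPM.

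The other interferon-response genes, 10 of 18 listed that could be paired, summed to 142 to 920 CPM on SPs and 131 to 510 CPM at LP day 1. LP day 7 samples held 145 to 4867 CPM and LP day 28 samples 127 to 184 CPM, and 0 of the 10 passed in any comparison of groups by edgeR. These 10 are among the study's DE genes, and the listed genes that were not DE could not be paired. LP day 7 sample 3 was the highest of the 23 samples for 22 of the 216 members. Without SP sample 3 and LP day 7 sample 3 the count of members past the threshold at LP day 7 was 2, beside 0.232% of all genes. Without SP sample 3 the count at LP day 28 was 7, beside 0.61%. The complement gene C6 was the member that separated SPs from LP day 1, at 20.1, 14.2, 14.7, 15.6 and 36.4 CPM on SPs and 5.93 to 11 CPM at LP day 1, with a log2 fold change of -1.31 (SE 0.27) and SP sample 5 apart from the rest. CXCL9, a chemokine of T-cell attraction, was highest in SP sample 4, at 81.3 CPM, and that sample also held the most PTPRC, a marker of blood-derived immune cells, at 91.7 CPM. The part of immune cells in the CXCL9 values was not tested.

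**Figure D5:**
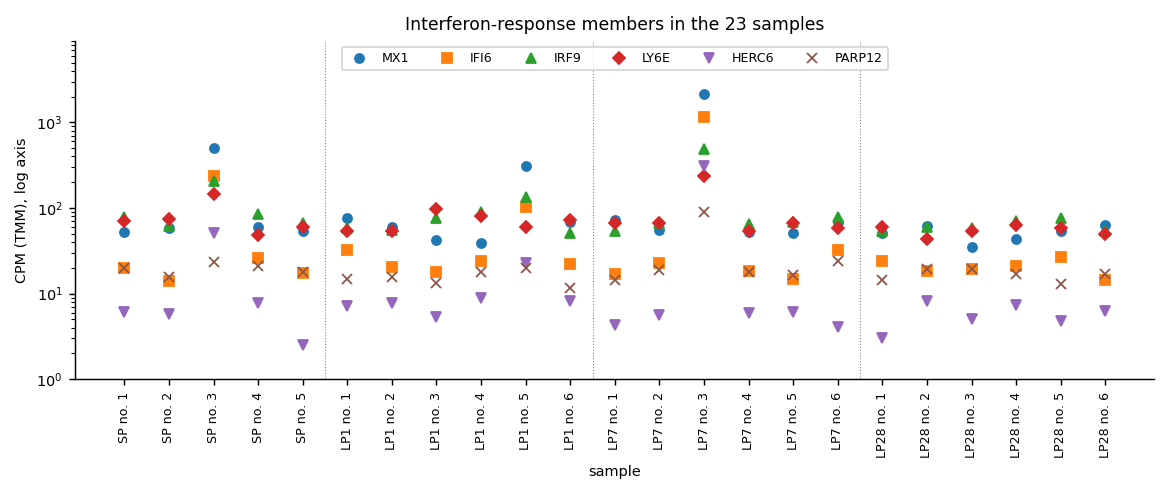
CPM (log axis) of 6 interferon and immune members in each of the 23 samples, in the order of SP, LP day 1, LP day 7, and LP day 28 (LP1, LP7, LP28), with dotted lines between groups. MX1 peaks in SP sample 3, LP day 1 sample 5, and LP day 7 sample 3, at 499.7, 311 and 2137 CPM, and PARP12 only in LP day 7 sample 3.

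Counts of members whose groups did not overlap differed between LP days. Between SPs and LP day 28, 7 of 202 members were higher in every LP sample, beside 1.11% of all genes, and 4 were lower, beside 0.871%. In either direction these were 11 members, beside 1.98% of genes, and 8 of the 11 had been listed from these animals. Of the 108 members listed from other animals only, 1 was higher and 2 were lower, which is 2.78%. At LP day 7, 1 of 200 was higher, beside 1.26% of genes, and 2 were lower, beside 0.778%, or 3 in all, beside 2.04%. At LP day 1, 0 of 197 were higher, beside 0.0871% of genes, and 1 was lower, beside 0.134%. For the even and odd samples of LP days 7 and 28, 3 of 200 members were higher in every even sample, beside 0.477% of genes, and 9 were lower, beside 0.853%. Between LP days 1 and 28, 1 of 197 was higher, beside 0.331% of genes, and 2 were lower, beside 0.196%. The differences between these counts were not tested.

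By role, medians of the log2 fold change at LP day 28 ran from -0.35 for secreted signals, with 6 of 20 above 0, to 0.40 for the 7 prohormone-processing enzymes and peptidases, with 5 above 0. Interferon and immune members were below 0 in 14 of 15 tested, with a median of -0.33, and SP sample 3 held the most MX1, IFI6, and HERC6 of the 2 groups. Other surface receptors were above 0 in 8 of 10, with a median of 0.37, and G-protein-coupled receptors in 12 of 20, with a median of 0.068. The median of all genes tested was -0.0066, and the roles are described without a test because measured values chose the members.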

How the data were processed

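RNA of 23 PT samples was sequenced, and the authors deposited 1 file of raw read counts per gene for each sample. The submitters' processing notes name Bowtie and HTSeq, without versions. Gene symbols came from the study's annotated tables, which pair 198 of the 216 members with a symbol, and coordinates and sequences were not used here. Those tables hold DE genes, so the marker and pathway genes that could be paired had also been chosen on measured values. Counts were analyzed with R 4.3.3. In edgeR 4.0.16, a gene was kept if it exceeded 1 CPM in a number of samples no smaller than the smaller group, libraries were scaled by TMM, and the quasi-likelihood test was applied with Benjamini-Hochberg adjustment over all genes tested (FDR under 0.05). SEs were derived from the fold change and its F statistic (the square root of F being the ratio of both). The procedure was tested on simulated data. DESeq2 1.42.0, edgeR's exact test, other scalings and filters, left-out samples, and parity or replicate terms were alternatives.

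Members and lists were chosen with earlier results of these data known. Named members are up to 5 in each direction with the largest fold among those whose groups do not overlap, a set fixed by function, and members past the threshold between LP days or by sample number. ADM, OGT, CD47, GPR101, and PRG4, the interferon members besides MX1 and IFI6, and AGT, MLC1, PDYN, ADCYAP1, CALB2, ENPEP, CXCL9, AGTR1, and GEM were added after their values were seen. The labels do not say that samples came from separate animals, so p-values measure the spread between these samples. The count floors cover counting error only, whereas SDs and SEs include the spread between samples. The labels give no pairing, and over all genes kept the deviations of same-numbered samples correlated by -0.174 to 0.258, so the fits hold no pairing. Genes that differ by even or odd number at LP days 7 and 28 are an exception to these weak correlations.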

Additional observations from a re-analysis of the deposited data

Results flagged for a closer look

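In 34 of 280 groups of 5 or 6 values, from 70 members, the highest or lowest sample lay apart from the others by Dixon's criterion at 95%, and chance flags about 1 in 20 groups. Some of the 70 members, among them HERC6, IRF9, LY6E, PARP12, GPR101, PRG4, and ADM, were added after their values were seen, so the number of such groups is partly fixed by that choice. LP day 7 sample 3 stood apart for 8 members, above the rest in MX1 (2137 CPM), IFI6 (1172 CPM), IRF9 (486 CPM), HERC6 (309.8 CPM), LY6E (236 CPM), PARP12 (89.0 CPM), and CHRNA2 (11.7 CPM), and below it in CORIN (16.54 CPM). SP sample 3 was above the other SP samples in MX1 (499.7 CPM), IFI6 (236 CPM), IRF9 (207 CPM), LY6E (144 CPM), and HERC6 (51.6 CPM). LP day 1 sample 5 was above its group in MX1 (311 CPM), IFI6 (102 CPM), HERC6 (22.9 CPM), ADM (111 CPM), and RGS11 (36.8 CPM).

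SP sample 2 was highest for CALY at 797 CPM and lowest for PCSK1 at 196 CPM. SP sample 5 was highest for C6 at 36.4 CPM and for AANAT at 1.97 CPM, which is near the count floor. LP day 1 sample 1 was highest for CORIN at 89.0 CPM and C6 at 10.95 CPM, and sample 2 for GUCY2C at 84.3 CPM and GPR101 at 11.9 CPM. LP day 1 sample 3 stood apart for GNG10 at 19.4 CPM and ADRA1A at 5.93 CPM. At LP day 28, sample 1 stood apart for SYT4 at 269.9 CPM, sample 2 for NPY at 114 CPM and AGRP at 93.8 CPM, sample 4 for NR4A1 at 414 CPM and PRG4 at 49.5 CPM, and sample 5 for ADRA1A at 20.8 CPM.

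Effects differed between groups for 3 members by edgeR's quasi-likelihood test. GADD45G and BAIAP3 differed between LP day 1 and LP day 28, by log2 fold changes of -4.58 and -0.57, which is also the difference of their changes from SPs. Both had been listed from these animals, so the same LP samples had helped to place them on the list. The even-odd difference of DRD1 was -2.61 on the log2 scale at LP day 28 relative to LP day 7, within a split that earlier work on these files had prompted.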

How the results depend on the processing

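Counts of members past the threshold depended on the test and on single samples, as did the share of all genes called, and the cause was not tested. Between SPs and LP day 1 the count of 0 became 1 with the exact test (0.0469% of all genes) and stayed 0 without any replicate. Between SPs and LP day 7 the count of 0 became 15 with the exact test (1.5% of all genes), 15 with DESeq2 (2.38%), 15 with the parity covariate (2.22%), 16 with the replicate block (1.11%), 2 without the interferon-high samples (0.232%), 1 (0.383%) in a single fit of all groups, and 0 to 5 without a replicate (0.0461% to 0.759%). Between SPs and LP day 28 the count of 11 became 27 with the exact test (1.77%), 30 with DESeq2 (2.32%), 4 with the replicate block (0.27%), 5 with SP samples 2, 3, and 5 alone (0.314%), 7 (0.61%) without SP sample 3 as the interferon-high sample, and 2 to 10 without a replicate (0.271% to 0.73%). Between LP days 1 and 7 the count of 0 became 2 with the exact test (0.114%), 1 with DESeq2 (0.094%), and 0 without any replicate. Between LP days 7 and 28 it became 4 with the exact test (0.222%), 4 with DESeq2 (0.242%), 1 with library size scaling (0.0403%), 1 with the block (0.0403%), 2 with the parity covariate (0.0672%), and 0 without any replicate. Between LP days 1 and 28 the count of 2 became 6 with the exact test (0.56%), 4 with DESeq2 (0.425%), 1 in a single fit (0.207%), 1 with the block (0.25%), and 1 to 6 without a replicate (0.127% to 0.388%). With LP day 1 samples 3 and 4 summed it stayed 2 (0.167%). With this sum the counts also stayed 0 between SPs and LP day 1 (0%) and between LP days 1 and 7 (0.00663%). For members listed from other animals only, the count of 0 at LP day 7 became 2 with the block, 2 with the parity covariate, 1 without the interferon-high samples, and 0 to 1 without a replicate. Their count of 1 at LP day 28 became 4 with the exact test, 4 with DESeq2, 2 with library size scaling (0.837% of all genes), 2 with no filter (0.651%), 0 with the block, 0 with SP samples 2, 3, and 5 alone, 3 without the interferon-high sample, and 0 to 3 without a replicate.

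Between even and odd samples the count of 20 ran from 16 to 20 without a replicate, beside 0.747% to 1.06% of all genes. NLRP12 and SYT4 each passed in 4 of 12 fits that left out a sample. TRIM9 and TTYH3 each passed in 5, MAPK8IP1 in 11, and the other members of the 20 in all 12. The count became 0 on SPs and at LP day 1 (0% of all genes). There SYT4 (0.034), NETO2 (-0.027), GABRG1 (-0.20), FOSL2 (-0.45), and PDE3A (0.79) had the opposite sign on the log2 scale. Same-numbered samples correlated in their deviations over all genes kept by -0.174 to 0.258, and the labels give no pairing, so the replicate block is not read as a pairing. The interferon-high samples and the split within SPs and LP day 1 were chosen after the data were seen. Depth limits members under 1 CPM, of which there were 15. In LP day 1 sample 4, with its floor of 9.74 CPM, depth also limits the 78 members at 1 to 10 CPM on average.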
